A study of Mus musculus with 3 samples.

Results

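The genes described here take up fatty acids, carry them inside the cell and store or release them as triglyceride. They are 10 genes chosen by name: the fatty acid binding proteins Fabp4, Fabp5 and Fabp7, the uptake genes Cd36 and Lpl, the droplet coat genes Plin2 and Plin3, the triglyceride enzymes Dgat1 and Pnpla2, and the nuclear receptor gene Pparg. These genes were chosen with earlier results of these data known. Each was found by its Entrez number, and all 10 were listed among 17870 genes in the deposited tables. RNA had been sequenced from primary hepatic stellate cells of male C57BL/6 mice 24 weeks old, with 1 library for each of 3 genotypes, TLR4-/-, CD44-/- and wild type. The cells of all 3 genotypes were isolated on a density gradient and depleted of liver macrophages with CD11b beads. They were then cultured for 3 days with 10% serum and for 24 h without it, so no group holds freshly isolated or otherwise treated cells. The sources used here do not give the knockout alleles or say whether animals or cultures were pooled. The series' description speaks of triplicates, and 1 library per genotype was analysed here.

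Stellate cells are the liver cells that store vitamin A as retinyl esters in lipid droplets, and they lose these droplets as they become matrix-producing cells. Fatty acids reach such cells after lipoprotein lipase has cut them from lipoprotein triglyceride, pass the membrane with the help of CD36, and are carried in the cytosol by fatty acid binding proteins. Perilipins coat the droplets, DGAT1 makes triglyceride and the lipase encoded by Pnpla2 breaks it down. PPARγ is the nuclear receptor that switches on many of these genes in fat cells and macrophages, and its loss is a known feature of stellate cell activation. Several of the 10 genes are also made by other liver cells: Cd36 and Fabp4 by macrophages and capillary endothelium, and Fabp7 in mice by the resident liver macrophages.

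With 1 library per genotype there is no replicate error, and no test between genotypes could be made. Levels are in FPKM, fragments per kilobase of transcript, scaled to the library's total. Their ratios carry exact conditional binomial 95% intervals on the read counts, which cover counting error only. A gene was called higher or lower by 2-fold or more from the log2 ratio of FPKM + 1, a scale that understates changes of low genes, among genes with at least 1 FPKM in either library. Such genes are called measured here. Libraries held 21460725 to 24078669 expected counts, and 11 of 12 stellate markers reached 1 FPKM in each of the 3 libraries, the exception being Gfap. Hepatocyte markers, 8 genes, summed to 1.99 FPKM in the library labelled TLR4-/-, 0.25 FPKM in CD44-/- and 10.1 FPKM in wild type. Cd44 stood at 2.57 FPKM in the CD44-/- library and 17.2 FPKM in wild type. Tlr4 stood at 10.9 FPKM in the library labelled TLR4-/- and 15.8 FPKM in wild type, a ratio of 0.693 (95% interval 0.639 to 0.752). That gene-level value does not by itself settle the genotype, so the sample is called by its label throughout.

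**Figure D1:**
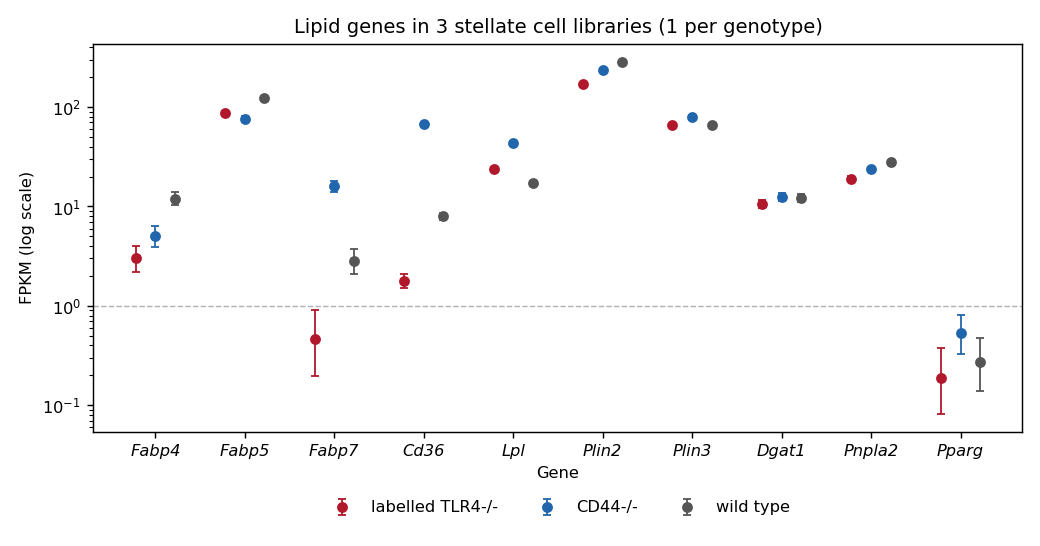
FPKM on a log axis for each of the 10 lipid genes in the 3 libraries, with exact Poisson 95% intervals from the read counts, so the bars show counting error only. Plin2 is the highest in every library, Pparg stays under the dashed line at 1 FPKM, and Cd36 spans 1.80 to 67.2 FPKM.

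The droplet coat genes Plin2 and Plin3 and the carrier gene Fabp5 were the 3 most abundant of the 10, and the nuclear receptor gene Pparg was the least. Plin2 was the highest in each library, Fabp5 was second in the library labelled TLR4-/- and wild type, and Plin3 was second in CD44-/-. The 10 genes summed to 383.5 FPKM in the library labelled TLR4-/-, 560.9 FPKM in CD44-/- and 550.9 FPKM in wild type. Plin2 alone made up 44.8%, 42.3% and 51.0% of those sums, in that order of libraries. Cd36 supplied 0.469% of the sum in the library labelled TLR4-/-, 12.0% in CD44-/- and 1.44% in wild type.

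Of the 9 measured genes, Fabp4, Fabp7 and Cd36 were 2-fold or more lower in the library labelled TLR4-/- than in wild type, and none was 2-fold higher. Over all 12098 genes measured in that comparison, 2.69% passed 2-fold downward and 1.04% upward. In CD44-/-, Cd36, Fabp7 and Lpl were 2-fold or more higher than in wild type and Fabp4 was 2-fold or more lower. Over all 12247 genes measured there, 2.24% passed 2-fold upward and 1.97% downward. Between the knockout-labelled libraries, Cd36 and Fabp7 were 2-fold or more lower in the library labelled TLR4-/-, against 3.44% of 12168 genes, and none was 2-fold higher, against 1.32%. Under the stricter demand that the whole counting interval lie beyond 2-fold, either way, 3 of the 9 passed in the library labelled TLR4-/- over wild type, 3 in CD44-/- over wild type and 2 between the knockout-labelled libraries. Over all genes these shares were 3.26%, 4.03% and 4.37%. Fabp7 counted as measured in the comparisons of the library labelled TLR4-/- only through the other library. Both comparisons with wild type use the same wild-type library, so their values are given side by side and not as independent results. In bulk RNA such as this, fewer cells of a type cannot be told apart from less RNA per cell.

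**Figure D2:**
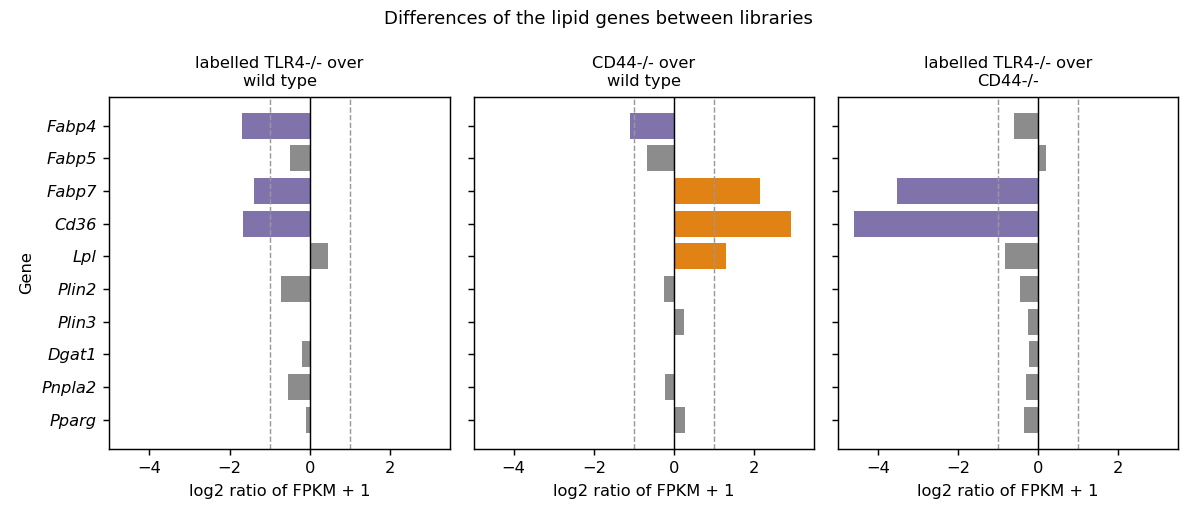
Log2 ratio of FPKM + 1 for each lipid gene in the 3 comparisons, with bars in orange for 2-fold or more higher, purple for 2-fold or more lower and grey for between. The dashed lines mark log2 ratios of -1 and 1, and the longest bars are those of Cd36 (-4.61) and Fabp7 (-3.53) in the library labelled TLR4-/- over CD44-/-.

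Fabp5, the epidermal-type fatty acid carrier, was the main binding protein gene of these cultures. The gene is on chromosome 3, from 10012585 to 10016610 (GRCm38, Entrez 16592). It stood at 87.2 FPKM in the library labelled TLR4-/-, 76.5 FPKM in CD44-/- and 123.5 FPKM in wild type, where it was at percentile 95.2 of the genes with at least 1 FPKM. The level was thus highest in wild type, with ratios of 0.706 (0.666 to 0.748) in the library labelled TLR4-/- and 0.619 (0.582 to 0.659) in CD44-/-. The knockout-labelled libraries lay closer together, with a ratio of 1.14 (1.07 to 1.22) between the library labelled TLR4-/- and CD44-/-. None of these passed 2-fold.

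Fabp4, the adipocyte-type carrier, lay highest in wild type as well. It is on the same chromosome, from 10204342 to 10208616 (Entrez 11770). It stood at 3.00 FPKM (44 reads) in the library labelled TLR4-/-, 5.04 FPKM (67 reads) in CD44-/- and 12.0 FPKM (179 reads) in wild type. The ratio to wild type was 0.25 (0.176 to 0.349) in the library labelled TLR4-/- and 0.42 (0.312 to 0.559) in CD44-/-. The second interval reaches past 0.5, so counting error alone allows a difference under 2-fold there. Between the knockout-labelled libraries the ratio was 0.595 (0.397 to 0.884), TLR4-/- label over CD44-/-.

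Endothelial markers were ordered in the same way as Fabp4. They were summed over 13 genes, among them the junctional cadherin gene Cdh5 and the adhesion gene Pecam1. The sum was 26.3 FPKM in the library labelled TLR4-/-, 42.6 FPKM in CD44-/- and 100.3 FPKM in wild type. Other markers had this order too, with sums of 7.86, 11.95 and 17.98 FPKM for smooth muscle and 0.25, 1.41 and 2.02 FPKM for mesothelium. Plin2 and Pnpla2 had it as well. Of the 11 measured endothelial markers, 9 were 2-fold or more lower in the library labelled TLR4-/-, against 2.69% of all measured genes. In CD44-/- 7 were, against 1.97%. At least 1 FPKM was reached by 2 in the library labelled TLR4-/- and by 7 in CD44-/-. The others counted as measured only through wild type, where they were high. None of the 13 was at 0 in any library. The median endothelial ratio to wild type was 0.0722 and 0.279, lower than that of Fabp4 in either library. Markers kept only through wild type favour low ratios, so this is not a separate result. The adipocyte markers Adipoq and Lep were at 0 in all 3 libraries, and no adipocyte marker was measured. The part of endothelial RNA in the Fabp4 levels was not tested.

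Fabp7, the brain-type carrier, was the binding protein gene with the widest range. Its place is chromosome 10, from 57784923 to 57788450 (Entrez 12140). It stood at 0.46 FPKM (8 reads) in the library labelled TLR4-/-, 15.9 FPKM (252 reads) in CD44-/- and 2.82 FPKM (50 reads) in wild type. CD44-/- was therefore the high library, 5.65-fold above wild type (4.15 to 7.81), and the library labelled TLR4-/- the low one, with a ratio of 0.163 (0.0668 to 0.347). The knockout-labelled libraries differed by a ratio of 0.0289 (0.0123 to 0.0578), TLR4-/- label over CD44-/-.

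Other members of the family were low or not seen. Fabp3, the heart-type carrier, stood at 3.55, 3.62 and 3.75 FPKM in the library labelled TLR4-/-, CD44-/- and wild type, with ratios to wild type of 0.947 (0.641 to 1.40) and 0.965 (0.648 to 1.43). The liver-type gene Fabp1 was at 0 in both knockout-labelled libraries and at 0.18 FPKM (2 reads) in wild type. Of 10 binding protein genes, 3 reached 1 FPKM in the library labelled TLR4-/- and 4 in each of the other libraries. Fabp5 supplied 92.6% of the family's summed FPKM in the library labelled TLR4-/-, 75.7% in CD44-/- and 86.8% in wild type. Fabp7 supplied 15.7% in CD44-/-, against 0.488% in the library labelled TLR4-/- and 1.98% in wild type.

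**Figure D3:**
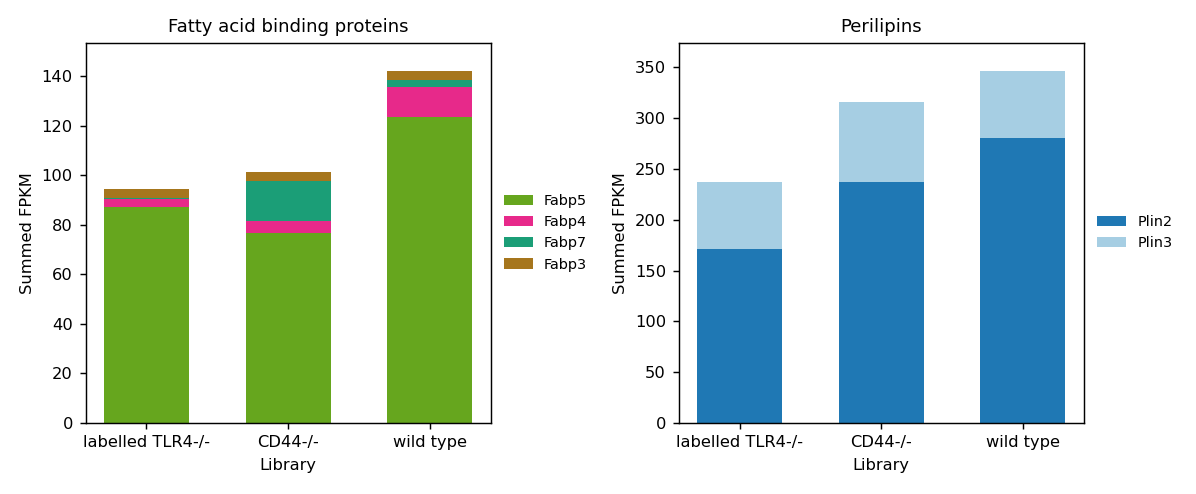
Stacked bars of FPKM in each library for the fatty acid binding proteins (left) and the perilipins (right), without error bars since each library is 1 sample. Fabp5 fills most of the left bars, with Fabp7 visible in CD44-/-, and Plin2 fills 72.2%, 75.0% and 81.0% of the right bars from left to right. Family members under 1 FPKM in every library are not drawn.

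Cd36, the scavenger receptor that takes up long-chain fatty acids and oxidised lipoproteins, had the widest range between libraries of the 10 genes. Counting error did not separate its widest ratio from that of Fabp7. Cd36 lies on chromosome 5 from 17781690 to 17888959 (Entrez 12491), with 5 RefSeq transcripts. Its level was 1.80 FPKM (152 reads) in the library labelled TLR4-/-, 67.2 FPKM (5057 reads) in CD44-/- and 7.93 FPKM (665 reads) in wild type. CD44-/- stood 8.48-fold above wild type (7.82 to 9.21), while the ratio in the library labelled TLR4-/- was 0.227 (0.189 to 0.271). Cd36 was at percentile 90.5 of the genes with at least 1 FPKM in CD44-/-, at 7.39 in the library labelled TLR4-/- and at 39.2 in wild type. Between the knockout-labelled libraries the ratio was 0.0268 (0.0226 to 0.0315), TLR4-/- label over CD44-/-, close to that of Fabp7.

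The stretches before the start sites of Cd36 and Fabp7, which shared an order of libraries, are shown beside that of Plin2. Plin2 is a PPAR target whose libraries were ordered otherwise. Dgat1 and Pparg had the order of Cd36 and Fabp7 too, but counting error did not separate CD44-/- from wild type for either. The stretches come from the RefSeq promoter table (GRCm38.p6), read on the gene's strand, with annotated exons left out. Capitals mark the core motif of nuclear receptors, AGGTCA on either strand. The Cd36 stretch (chr5:17835897-17836146, minus strand) lies inside the gene, before a start downstream of its outermost one and outside annotated exons. Start sites are those of the promoter table, and that of Plin2 also lies inside the annotated gene, so its stretch is the part of the window beyond the gene's edge. The Fabp7 stretch is chr10:57784673-57784880 on the plus strand, and the Plin2 stretch is chr4:86670218-86670309 on the minus strand.
Cd36: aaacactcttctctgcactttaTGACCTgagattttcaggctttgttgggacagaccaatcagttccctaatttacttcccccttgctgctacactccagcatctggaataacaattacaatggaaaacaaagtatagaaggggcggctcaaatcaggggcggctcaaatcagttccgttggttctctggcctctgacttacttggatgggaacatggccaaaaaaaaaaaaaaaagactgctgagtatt
Fabp7: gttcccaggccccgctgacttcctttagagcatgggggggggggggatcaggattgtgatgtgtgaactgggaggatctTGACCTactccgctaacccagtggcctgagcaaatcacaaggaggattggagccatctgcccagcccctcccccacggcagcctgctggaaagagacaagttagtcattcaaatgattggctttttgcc
Plin2: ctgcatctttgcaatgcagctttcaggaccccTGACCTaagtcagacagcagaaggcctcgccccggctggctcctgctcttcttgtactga

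Each of these stretches held the motif once, on the opposite strand, beginning 228 bases before the promoter table's start site in Cd36, 171 in Fabp7 and 218 in Plin2. Among all 32851 windows of 250 bases in the table, 14.0% held AGGTCA on either strand. Of the 10 genes, 6 had an entry, with 8 windows between them, and 5 of the 8 held the motif. The 3 others were those of Plin3 and Pnpla2 and 1 of the 3 of Pparg. The full PPAR element, a direct repeat written AGGTCANAGGTCA, was found in none of the 8 windows and in 0.0335% of all, and it contains the shorter motif. The Cd36 window also held the GC box GGGCGG 2 times, a motif found in 32.7% of windows. A match describes the letters only, and Fabp4, Fabp5, Lpl and Dgat1 had no entry.

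Lpl, which encodes the secreted lipase that frees fatty acids from lipoproteins, was also highest in CD44-/-, but its order of libraries was another one. The Lpl gene is on chromosome 8, from 68880555 to 68906932 (Entrez 16956). It stood at 24.0 FPKM in the library labelled TLR4-/-, 43.7 FPKM in CD44-/- and 17.3 FPKM in wild type. Both knockout-labelled libraries were thus above wild type, 1.39-fold (1.30 to 1.48) in the library labelled TLR4-/- and 2.53-fold (2.39 to 2.68) in CD44-/-. The ratio between them was 0.549 (0.521 to 0.578), TLR4-/- label over CD44-/-. Its counts were not whole, so some of its reads were shared with other genes, which also holds for Plin3. The counts of the other 8 genes were whole in every library.

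Macrophage markers were ordered as Cd36 and Fabp7 were. Summed over 18 genes they gave 24.7 FPKM in the library labelled TLR4-/-, 605 FPKM in CD44-/- and 59.7 FPKM in wild type. The sum of the 12 stellate markers had this order too, but with the library labelled TLR4-/- and wild type nearly tied. The stellate sum was 4204 FPKM in the library labelled TLR4-/-, 5718 FPKM in CD44-/- and 4246 FPKM in wild type. Its largest part, Dcn, had another order, at 2951, 4337 and 2614 FPKM in the same libraries. All 15 measured macrophage markers were 2-fold or more higher in CD44-/- than in wild type, against 2.24% of all measured genes. In wild type 8 reached 1 FPKM, so the others counted as measured only through CD44-/-, where they were high. The ratios ran from 4.92 to 25.5 with a median of 11.5, a range that holds the ratios of Cd36 and Fabp7 and not that of Lpl. Markers kept only through CD44-/- favour high ratios, so lying in or outside this range is not a separate result. In the library labelled TLR4-/- the 8 measured macrophage markers had ratios to wild type from 0.065 to 0.678. Of these 3 were 2-fold or more lower, against 2.69% of all measured genes. In that library 4 reached 1 FPKM, and the others counted only through wild type. Timd4 was at 0 in all 3 libraries, Fcgr1 in all but CD44-/-, and Clec4f in the library labelled TLR4-/-. The part of macrophage RNA in the levels of Cd36, Fabp7 and Lpl was not tested.

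**Figure D4:**
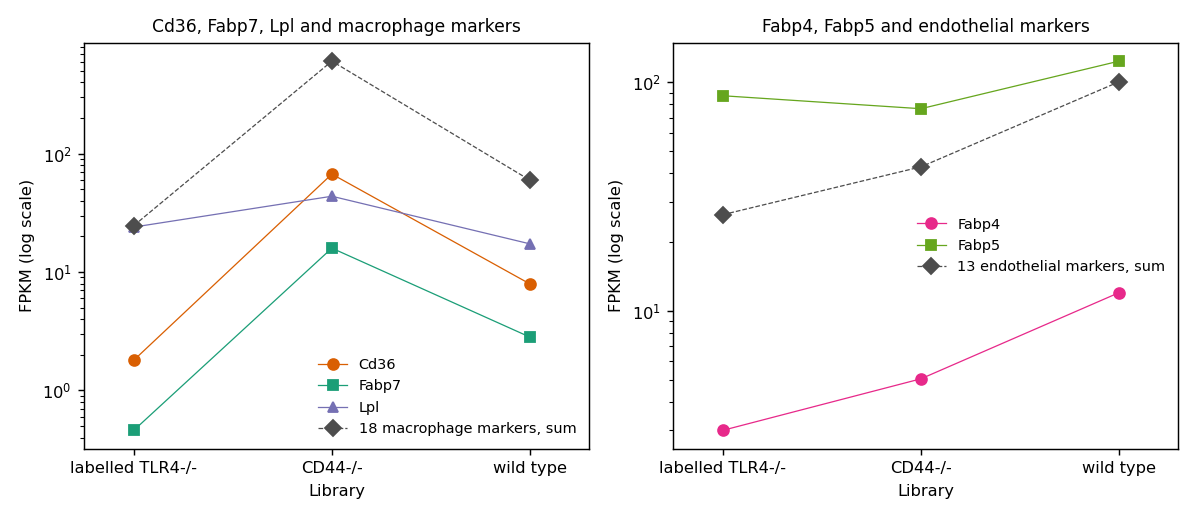
FPKM on log axes in the 3 libraries, for Cd36, Fabp7 and Lpl with the sum of 18 macrophage markers (left) and for Fabp4 and Fabp5 with the sum of 13 endothelial markers (right). The thin lines only join the points of 1 gene or sum, and each point is 1 library without a replicate error. On the left Cd36, Fabp7 and the macrophage sum share the same order of libraries, and on the right Fabp4 and the endothelial sum do.

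The genes whose profiles lay closest were found by the distance between log2 values centred over the 3 libraries, among 9005 named genes with at least 5 FPKM in some library. For Cd36 these were Ctss (distance 0.231), Tyrobp (0.255) and Lyz2 (0.392), the last 2 of which are on the macrophage marker list. Lyz2 stood at 11.1 FPKM in the library labelled TLR4-/-, 362 FPKM in CD44-/- and 31.4 FPKM in wild type. For Fabp7 they were Trem2 (0.128), C1qc (0.255) and Itgax (0.325), and C1qc is on that list too. Trem2 stood at 0.2, 12.0 and 1.77 FPKM in the library labelled TLR4-/-, CD44-/- and wild type. Nearest to Lpl were Pf4 (0.0962), H2-T23 (0.118) and Plxnc1 (0.127), and nearest to Fabp4 were H1f2 (0.101), Dcxr (0.101) and Pdgfrl (0.127). With 3 libraries such a distance describes these samples only.

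Plin2, the perilipin that coats droplets in most cells outside fat tissue, was lower in both knockout-labelled libraries than in wild type, by less than 2-fold. Plin2 is on chromosome 4, from 86626910 to 86670217 (Entrez 11520). It stood at 171.6 FPKM in the library labelled TLR4-/-, 237.1 FPKM in CD44-/- and 281 FPKM in wild type, where it ranked 241 among all listed genes. The ratio to wild type was 0.611 (0.594 to 0.629) in the library labelled TLR4-/- and 0.844 (0.822 to 0.867) in CD44-/-. The levels of the 3 libraries were apart by more than counting error, with a ratio of 0.724 (0.702 to 0.746) between the library labelled TLR4-/- and CD44-/-.

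Plin3, a perilipin that moves between cytosol and droplets, varied least among the 3 most abundant genes. It lies on chromosome 17 from 56278962 to 56290511 (Entrez 66905) and stood at 65.8 FPKM in the library labelled TLR4-/-, 78.6 FPKM in CD44-/- and 65.8 FPKM in wild type. Counting error did not separate the library labelled TLR4-/- from wild type, with a ratio of 1.0 (0.953 to 1.05). CD44-/- was 1.20-fold above wild type (1.14 to 1.25). Of the 5 perilipin genes, Plin1, Plin4 and Plin5 were under 1 FPKM in every library. Plin1, the coat protein of fat cell droplets, had 3 reads in the library labelled TLR4-/-, 1 read in CD44-/- and none in wild type.

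Pnpla2, which encodes the adipose triglyceride lipase, followed the order of Plin2. Pnpla2 is on chromosome 7, from 141455188 to 141460743 (Entrez 66853). It stood at 19.0 FPKM in the library labelled TLR4-/-, 23.8 FPKM in CD44-/- and 28.2 FPKM in wild type. Its ratios to wild type were 0.674 (0.626 to 0.726) and 0.844 (0.786 to 0.907), in that order, and both knockout-labelled libraries were thus lower by more than counting error and less than 2-fold.

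Dgat1, which encodes an enzyme of the last step of triglyceride synthesis, differed little. It lies on chromosome 15 from 76502012 to 76512021 (Entrez 13350) and stood at 10.5 FPKM in the library labelled TLR4-/-, 12.4 FPKM in CD44-/- and 12.2 FPKM in wild type. CD44-/- and wild type were not separated by counting error, with a ratio of 1.02 (0.898 to 1.16). The library labelled TLR4-/- had a ratio to wild type of 0.864 (0.759 to 0.983).

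Pparg was the only one of the 10 genes under 1 FPKM in every library. It lies on chromosome 6 from 115360879 to 115490404 (Entrez 19016). It had 8 reads (0.19 FPKM) in the library labelled TLR4-/-, 21 reads (0.53 FPKM) in CD44-/- and 12 reads (0.27 FPKM) in wild type. At this depth neither ratio to wild type was separated from 1, at 0.704 (0.25 to 1.87) in the library labelled TLR4-/- and 1.96 (0.922 to 4.38) in CD44-/-. The library labelled TLR4-/- was below CD44-/-, with a ratio of 0.358 (0.137 to 0.843).

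Several receptors and partners of that pathway were far more abundant than Pparg. Of the list's 13 genes, Pparg included, 8 were measured in each comparison, and Pparg was not. The binding partner gene Rxra stood at 43.0 FPKM in the library labelled TLR4-/-, 70.6 FPKM in CD44-/- and 83.0 FPKM in wild type, a ratio of 0.518 (0.501 to 0.535) in the library labelled TLR4-/-. The oxysterol receptor gene Nr1h2 stood at 46.9, 61.8 and 54.5 FPKM in the same order. Cebpd and Cebpa, which encode C/EBP factors that act before and with PPARγ in fat cells, were 2-fold or more higher in CD44-/- than in wild type. Cebpd stood at 56.7 FPKM in CD44-/- and 26.9 FPKM in wild type, 2.11-fold (1.98 to 2.25), and Cebpa at 6.23 and 2.59 FPKM, 2.41-fold (1.99 to 2.91). Both intervals reach under 2-fold, and the log2 ratio of Cebpa, 1.01, was 0.99 with median-of-ratios scaling, under the threshold. Macrophage markers were also highest in CD44-/-, and their part in these levels was not tested. No measured gene of this list was past 2-fold in the library labelled TLR4-/- over wild type, and Cebpb, at 167.6 FPKM there and 237.2 FPKM in wild type, was the most abundant.

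Known PPAR targets outside the 10 genes included some that were highest in wild type. Angptl4, which encodes a secreted inhibitor of lipoprotein lipase, stood at 19.8 FPKM in the library labelled TLR4-/-, 17.2 FPKM in CD44-/- and 67.1 FPKM in wild type. Its ratio to wild type was 0.296 (0.274 to 0.318) in the library labelled TLR4-/- and 0.256 (0.236 to 0.278) in CD44-/-. Pdk4, which encodes a kinase that restrains pyruvate use, stood at 4.99 FPKM in the library labelled TLR4-/-, 7.05 FPKM in CD44-/- and 15.5 FPKM in wild type. The full target list also holds Fabp4, Cd36, Lpl and Plin2 of the 10 genes, whose calls are given above and are repeated here. Of 11 measured targets, 4 were 2-fold or more lower in the library labelled TLR4-/-, against 2.69% of all measured genes. They were Fabp4, Cd36, Angptl4 and Pdk4. None was higher, against 1.04%. The median log2 ratio was -0.71 beside 0.03 over all measured genes. In CD44-/- there were 2 higher (Cd36 and Lpl), against 2.24%, and 3 lower (Fabp4, Angptl4 and Pdk4), against 1.97%. The median there was -0.16 beside 0.03. Between the knockout-labelled libraries, 1 (Cd36) was lower in the library labelled TLR4-/-, against 3.44%, and none was higher, against 1.32%.

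Genes of fatty acid uptake and activation lay on both sides of wild type. In the library labelled TLR4-/-, 1 of 18 measured was 2-fold or more higher than in wild type, against 1.04% of all measured genes. Another 3 were lower, against 2.69%. The higher one was Vldlr, a lipoprotein receptor gene, at 3.06 FPKM against 0.48 FPKM, 6.38-fold (5.14 to 7.98). In CD44-/- it stood at 1.81 FPKM, 3.77-fold above wild type (3.00 to 4.78), a log2 ratio of 0.93 on the scale of FPKM + 1, which is under the threshold, and of 1.72 with a pseudocount of 0.1. Gpihbp1 encodes the capillary anchor of lipoprotein lipase. It stood at 0.42 FPKM (8 reads) in the library labelled TLR4-/-, 0.7 FPKM (12 reads) in CD44-/- and 2.85 FPKM (55 reads) in wild type. That is the order of Fabp4 and of the endothelial, smooth muscle and mesothelial sums. In CD44-/-, 3 of 19 measured were higher, against 2.24% of all measured genes, and 2 lower, against 1.97%. Besides Cd36 and Lpl the higher ones included Msr1, a macrophage scavenger receptor gene, at 8.51 FPKM against 0.56 FPKM, 15.2-fold (10.6 to 22.4). Msr1 had 8 reads in the library labelled TLR4-/-, which gives it the library order of the macrophage sum. The stellate sum had that order by a small margin. The part of macrophage RNA in the level of Msr1 was not tested. Median log2 ratios were 0.00 for the library labelled TLR4-/- and 0.01 for CD44-/-, beside 0.03 over all measured genes in each.

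**Figure D5:**
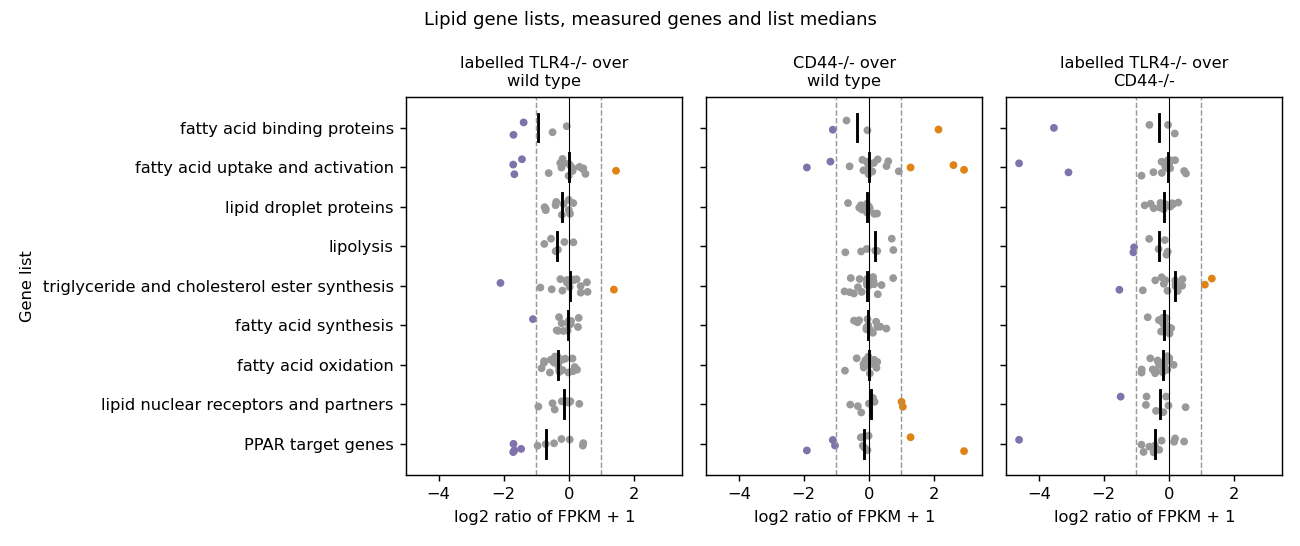
Log2 ratio of FPKM + 1 for the measured genes of 9 lipid gene lists in the 3 comparisons, with 1 point per gene and a black bar at each list's median. Points are orange at 2-fold or more higher, purple at 2-fold or more lower and grey between, and the measured genes of the droplet protein and fatty acid oxidation lists are grey points alone.

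Droplet protein genes stayed within 2-fold where they were measured, as most genes did. None of 11 measured droplet protein genes passed 2-fold in any of the 3 comparisons. Over all measured genes 1.04% to 3.44% passed in each direction and comparison, so this does not set the list apart. The list's median log2 ratio to wild type was -0.21 for the library labelled TLR4-/- and -0.06 for CD44-/-. G0s2, which encodes an inhibitor of the lipase made from Pnpla2, stood at 33.9 FPKM in the library labelled TLR4-/-, 50.4 FPKM in CD44-/- and 44.6 FPKM in wild type. The ratio of the library labelled TLR4-/- to wild type was 1.10 (1.05 to 1.16) for Rab18 and 1.03 (0.974 to 1.09) for Aup1, other droplet-associated genes. On the lipolysis list, which does not hold Lpl, no measured gene passed 2-fold against wild type on the scale of FPKM + 1, but Lipa and Pnpla3 were 2-fold or more lower when the library labelled TLR4-/- was set against CD44-/-. Lipa, the lysosomal acid lipase gene, stood at 49.7 FPKM in the library labelled TLR4-/-, 106.9 FPKM in CD44-/- and 62.8 FPKM in wild type. Pnpla3 stood at 0.28, 1.68 and 0.64 FPKM in that order, and both genes had the library order of the macrophage sum. The stellate sum had it by a small margin. The FPKM of Pnpla3 was 2.62-fold higher (1.99 to 3.52) in CD44-/- than in wild type, a log2 ratio of 0.71 on the scale of FPKM + 1, of 1.27 with a pseudocount of 0.1 and of 1.13 with TMM-scaled CPM. Mgll, which encodes the lipase of the last step, stood at 14.0 FPKM, 14.4 FPKM and 24.3 FPKM, and Nceh1, a cholesterol ester hydrolase gene, at 5.05, 5.57 and 4.47 FPKM.

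Genes of triglyceride and cholesterol ester synthesis lay on both sides of wild type. Among 17 measured, Soat2 was 2-fold or more higher and Gpat2 2-fold or more lower in the library labelled TLR4-/- than in wild type. Over all measured genes these shares were 1.04% and 2.69%. None passed 2-fold in CD44-/-, against 2.24% upward and 1.97% downward. Between the knockout-labelled libraries, 2 of 16 measured were higher and 1 lower in the library labelled TLR4-/-, against 1.32% and 3.44%. Gpat2, a glycerol phosphate acyltransferase family gene, stood at 1.38 FPKM in the library labelled TLR4-/-, 5.82 FPKM in CD44-/- and 9.21 FPKM in wild type. Soat2, which encodes a cholesterol acyltransferase, stood at 5.40, 1.96 and 1.44 FPKM in that order. Lpin3, a phosphatidate phosphatase gene, was 2.84-fold higher (2.51 to 3.22) in the library labelled TLR4-/- relative to CD44-/-, at 12.8 FPKM against 4.52 FPKM, with 8.25 FPKM in wild type. Agpat1 and Agpat3, acyltransferase genes of the same pathway, stayed between 43.1 and 56.7 FPKM in all 3 libraries.

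Of 13 measured fatty acid synthesis genes, Fads2 alone passed 2-fold, and only in the library labelled TLR4-/- over wild type. It was lower there, as were 2.69% of all measured genes by 2-fold or more. This desaturase gene stood at 60.3 FPKM in the library labelled TLR4-/-, 94.96 FPKM in CD44-/- and 130.4 FPKM in wild type. Scd2, another desaturase gene, stood at 141.7, 162.2 and 134.9 FPKM in that order. Among the other abundant genes, the ratio of the library labelled TLR4-/- to wild type was 0.772 (0.745 to 0.799) for the desaturase gene Fads1, 0.811 (0.782 to 0.840) for the malic enzyme gene Me1 and 1.0 (0.955 to 1.05) for the elongase gene Elovl1. The list's median log2 ratio was -0.03 for the library labelled TLR4-/- and -0.01 for CD44-/-.

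None of the 21 measured genes of fatty acid oxidation passed 2-fold in any comparison. Over all measured genes 1.04% to 3.44% did in each direction and comparison. Most of the 21 were under the wild-type level in the library labelled TLR4-/-. Of 21 measured, 17 had a log2 ratio under 0 there and 11 in CD44-/-, with medians of -0.32 and -0.01, beside 0.03 over all measured genes in each. Over all measured genes, 5538 of 12098 lay under 0 for the library labelled TLR4-/- and 5522 of 12247 for CD44-/-. The gene of the list that was not measured, Cpt1b, stood at 0.19 FPKM (12 reads) in CD44-/- and 0.88 FPKM in wild type, a ratio of 0.216 (0.105 to 0.402). Acaa2, a thiolase gene, stood at 42.7 FPKM in the library labelled TLR4-/-, 77.1 FPKM in CD44-/- and 73.0 FPKM in wild type. Acadl, a dehydrogenase gene, stood at 42.1, 62.9 and 63.4 FPKM in the same order. Cpt1a, which encodes the enzyme that admits fatty acids to mitochondria, had a ratio to wild type of 0.726 (0.699 to 0.755) in the library labelled TLR4-/- and 0.894 (0.861 to 0.928) in CD44-/-. For Hadhb, a subunit gene of the mitochondrial trifunctional protein, these ratios were 0.812 (0.764 to 0.862) and 1.0 (0.945 to 1.06), and for Etfb, an electron transfer gene, 0.929 (0.857 to 1.01) and 0.961 (0.886 to 1.04).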

How the data were processed

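RNA was sequenced from 3 samples, 1 per genotype, grouped by the genotype in their labels. For each the authors deposited expected counts, estimated reads per gene that need not be whole, and FPKM. Per the submitters' processing notes RSEM and the mm10 build were used. The sources used here do not give its version or strand handling. Genes absent from 1 library's table were given 0 there. Entrez numbers were matched to RefSeq's GRCm38.p6 gene table (mm10 names the same assembly) for 17824 of 17870 genes, and 1 marker symbol of the lists found no match.

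The size rule was log2((FPKM + 1)/(FPKM + 1)) of at least 1 or at most -1 with at least 1 FPKM in either library. Intervals were exact conditional binomial (Clopper-Pearson) for ratios, on rounded expected counts, and exact Poisson for levels (scipy 1.17.1). PCR reads are not independent molecules, so intervals cover counting error only. Alternatives changed the pseudocount (0.1), the filter (none, or 5 FPKM), the scaling (median of ratios, TPM, or CPM with TMM factors from edgeR 4.0.16) or the call (a counting interval beyond 2-fold). The steps were tested on simulated data.

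The 10 genes and all lists were chosen with earlier results of these data known. Named genes of a list were up to 5, those past the size rule with the largest difference first and then the most abundant. Motifs and printed stretches were chosen after values and sequences were seen.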

Additional observations from a re-analysis of the deposited data

Results flagged for a closer look

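The genes given here lay on opposite sides of wild type in the knockout-labelled libraries, with counting intervals that exclude a ratio of 1 on both sides. The difference between genotypes was not tested, since each has 1 library, and both sides share the wild-type library. The 10 lipid genes and the named genes of each list, up to 5 a list, were examined in this way, so other genes of the lists may do the same. Lipe, at -0.60, and Acaa1a were not among those examined and are examples. Values are log2 ratios of FPKM + 1 of the library labelled TLR4-/- over CD44-/-. Among the 10 lipid genes, the value was -4.61 for Cd36 and -3.53 for Fabp7. Among genes of the wider lists it was -3.09 for Msr1, -1.48 for Cebpd, -1.09 for Lipa, -1.07 for Pnpla3, -0.56 for G0s2 and -0.39 for Nr1h2, all lower in the library labelled TLR4-/- relative to CD44-/-. Lpin3 went the other way, with a value of 1.33. The rule for picking genes here, together with a negative value, fixes the order of libraries of the first 8. Sharing that order with the macrophage sum is therefore not a separate result, and the stellate sum had it too, by a small margin. The part of macrophage RNA in these values was not tested.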

How the results depend on the processing

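The number of lipid genes past 2-fold was 3 in the library labelled TLR4-/- over wild type, 4 in CD44-/- over wild type and 2 between the knockout-labelled libraries. Under all alternatives run it stayed within 2 to 3, 3 to 4 and 2 to 2. With a filter at 5 FPKM, Fabp7 left the first count. With a counting interval beyond 2-fold, Fabp4 left the second. Of 120 log2 ratios of the 10 genes under another pseudocount or scaling, 7 moved by more than counting error, 6 of Cd36 and 1 of Fabp7. None that had passed 2-fold changed sign. Among the named genes of the wider lists, Cebpa (0.99 with median-of-ratios scaling) lost its 2-fold call in CD44-/- over wild type, while Pnpla3 and Vldlr gained one there with a pseudocount of 0.1 or TMM-scaled CPM. For Fabp7 in the library labelled TLR4-/- over CD44-/- the log2 ratio ranged from -4.84 with a pseudocount of 0.1 to -3.25, and for Cd36 from -5.15 to -4.60. No paired analysis was possible because each genotype has 1 library, and no library could be left out. The 8 reads of Fabp7 and of Pparg in the library labelled TLR4-/- limit what can be said of their levels there.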
